A study of Mus musculus with 8 samples.

Results

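Described here are 9 genes of sympathetic, parasympathetic and angiotensin signalling in the heart: 5 receptors, 2 adenylyl cyclases and 2 phosphodiesterases. They were chosen by symbol (Adrb1, Adra1a, Adra1b, Chrm2, Agtr1a, Adcy5, Adcy6, Pde3a and Pde4d) among the 38293 gene identifiers of the count table, and all 9 were found. Poly(A) RNA was sequenced from the left ventricle of untreated male mice, 8 weeks old and on a C57BL/6 background. The 4 wild-type (WT) hearts and 4 hearts with a knockout (KO) of Nbdy, also named mORF4, gave 1 library each. Nbdy encodes a microprotein of the mRNA decapping complex. The labels describe neither the KO allele nor the cells in which it acts. Total counts ran from 11101901 to 14699949 per library, and 13336 genes, all 9 among them, had enough counts to be tested.

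Noradrenaline acts on the beta1 receptor (Adrb1), which couples to the stimulatory G protein and raises cyclic AMP (cAMP) through adenylyl cyclases 5 and 6. The M2 muscarinic receptor (Chrm2) opposes this through an inhibitory G protein, and phosphodiesterases such as Pde3a and Pde4d break cAMP down. The alpha1 receptors (Adra1a, Adra1b) and the type 1 angiotensin receptor (Agtr1a) couple to Gq and phospholipase C beta, a route known for its part in cardiac growth. In the ventricle this network sets contractile force and its response to stress.

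The start regions of these genes differed widely in base composition, and some are printed to show that range; no measurement made here reads the activity of a promoter. RefSeq windows on GRCm38.p6, from 250 bases before to 50 bases after a transcription start, were found for 5 of the 9 genes (Adrb1, Adra1b, Chrm2, Adcy5 and Pde4d). The windows printed are those of a beta receptor, the opposing muscarinic receptor, a cyclase, and both starts of Adra1b. Each runs 5′ to 3′ on the strand of its gene, and capitals mark GC boxes, the letters GGGCGG on either strand.
Adrb1, chr19:56721867-56722166, plus strand: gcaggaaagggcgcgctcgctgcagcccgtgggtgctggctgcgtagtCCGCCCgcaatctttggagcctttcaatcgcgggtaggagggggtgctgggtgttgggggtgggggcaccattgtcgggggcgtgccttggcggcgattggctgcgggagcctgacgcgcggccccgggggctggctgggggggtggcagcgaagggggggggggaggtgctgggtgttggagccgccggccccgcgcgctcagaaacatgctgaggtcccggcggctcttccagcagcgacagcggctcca
Chrm2, chr6:36387834-36388133, plus strand: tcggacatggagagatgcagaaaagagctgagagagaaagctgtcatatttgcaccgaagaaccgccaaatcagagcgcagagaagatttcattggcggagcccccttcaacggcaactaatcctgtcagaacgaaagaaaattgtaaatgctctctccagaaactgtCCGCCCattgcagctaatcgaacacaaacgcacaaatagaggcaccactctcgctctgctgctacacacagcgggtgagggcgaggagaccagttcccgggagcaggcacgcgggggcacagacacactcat
Adcy5, chr16:35154614-35154913, plus strand: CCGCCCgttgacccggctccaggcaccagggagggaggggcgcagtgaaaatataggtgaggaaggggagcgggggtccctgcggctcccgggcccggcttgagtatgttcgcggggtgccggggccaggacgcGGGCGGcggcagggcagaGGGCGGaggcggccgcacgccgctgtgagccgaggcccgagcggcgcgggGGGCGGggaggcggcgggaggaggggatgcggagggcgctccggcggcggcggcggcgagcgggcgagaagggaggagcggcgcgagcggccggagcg
Adra1b, chr11:43901188-43901487, minus strand: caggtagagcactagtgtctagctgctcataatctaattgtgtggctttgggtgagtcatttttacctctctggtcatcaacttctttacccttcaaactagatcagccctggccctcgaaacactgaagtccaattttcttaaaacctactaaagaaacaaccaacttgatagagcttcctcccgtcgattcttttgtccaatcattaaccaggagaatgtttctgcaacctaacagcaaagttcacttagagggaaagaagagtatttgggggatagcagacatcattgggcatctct
Adra1b, chr11:43836440-43836739, minus strand: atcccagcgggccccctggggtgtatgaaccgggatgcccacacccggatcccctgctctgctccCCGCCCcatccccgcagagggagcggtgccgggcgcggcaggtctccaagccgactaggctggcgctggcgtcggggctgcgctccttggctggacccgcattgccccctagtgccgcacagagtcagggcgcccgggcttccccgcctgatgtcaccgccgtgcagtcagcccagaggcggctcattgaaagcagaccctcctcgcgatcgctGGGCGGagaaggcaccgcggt

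The Adcy5 window was 79% G and C with 44 CpG dinucleotides and 4 GC boxes, against a median of 52.7% and 7 CpG over the 32851 windows of that length. Adrb1 (72.3%, 28 CpG) held 1 GC box and Chrm2 (52.7%, 16 CpG) also held 1. GC boxes were found in 35.7% of all windows. The 2 starts of Adra1b lie 64748 bases apart and contrast with each other. The outer one was 42.3% G and C with 3 CpG and no GC box, and the inner one 71.3% with 28 CpG and 2 GC boxes. The count of Adra1b adds transcripts from both starts. The full cAMP response element, TGACGTCA on either strand and present in 1.79% of all windows, was in none of the 6 windows of these genes. Its shorter core TGACG, which the full element contains and which was in 20.8% of all windows, was found once, in that of Adrb1.

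Library quality and genotype labels were checked first. Levels are given as CPM, counts scaled to a common library size, and every ± after a level or share is the SD over the 4 hearts of a genotype (n = 4), whereas ± after a log2 fold change of KO against WT is its SE. Nbdy averaged 19.4 ± 0.470 CPM among WT hearts against 9.92 ± 0.412 among KO hearts, and the groups did not overlap. Nbdy RNA thus remained in every KO library, at 0.511 of the WT level. WT replicate 2 stood apart in Atf3, an acute stress gene, at 260.5 CPM, where WT replicates 1, 3 and 4 held 5.94, 23.8 and 18.7 CPM. The same library held the lowest level of 4 of the 9 genes (Adrb1, Adra1b, Agtr1a and Adcy6) and the highest of Adra1a, so values without it are given beside those genes. Ventricular origin was checked with defining atrial genes: Bmp10 had 0 counts in every library, Sln at most 7 and Myl7 at most 28, while Myl4 had 40 to 116 (5.10 ± 1.39 CPM among WT and 5.07 ± 2.14 among KO hearts). Nppa, the atrial natriuretic peptide gene that ventricles also express under load, averaged 400.2 ± 96.4 CPM among WT hearts against 601.2 ± 123 among KO hearts (log2 fold change 0.59 ± 0.19, adjusted p = 0.711 by edgeR).

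Per unit of length, the cyclase Adcy6 was the most abundant of the 9 and Pde3a the least. These levels are CPM per kilobase of summed exon and allow genes to be compared with each other. Adcy6 averaged 44.7 ± 14.2 among WT and 56.2 ± 0.634 among KO hearts. Agtr1a followed with 9.53 ± 1.61 and 10.03 ± 1.04, then Adcy5 with 7.52 ± 0.627 and 8.05 ± 0.437, and Chrm2 with 6.66 ± 0.774 and 6.63 ± 1.24 (WT, then KO). Adra1b reached 5.22 ± 1.76 and 6.58 ± 1.93, and Adrb1 2.54 ± 0.591 and 2.30 ± 0.381. Lowest were Pde4d (1.28 ± 0.540 and 1.13 ± 0.287), Adra1a (0.637 ± 0.0791 and 0.456 ± 0.130) and Pde3a (0.151 ± 0.0516 and 0.221 ± 0.107). Adcy6 lay above every other gene in all libraries of both genotypes. Neighbours whose ranges overlapped in WT were Agtr1a with Adcy5, Adcy5 with Chrm2, Chrm2 with Adra1b, and Adrb1 with Pde4d. In KO they were Adcy5 with Chrm2, Chrm2 with Adra1b, and Adra1a with Pde3a. Pde4d has 20 annotated transcripts, and per kilobase of its longest one it stood at 3.65 in WT and 3.23 in KO, above Adrb1. Bulk RNA cannot tell fewer cells of a type apart from less RNA per cell.

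**Figure D1:**
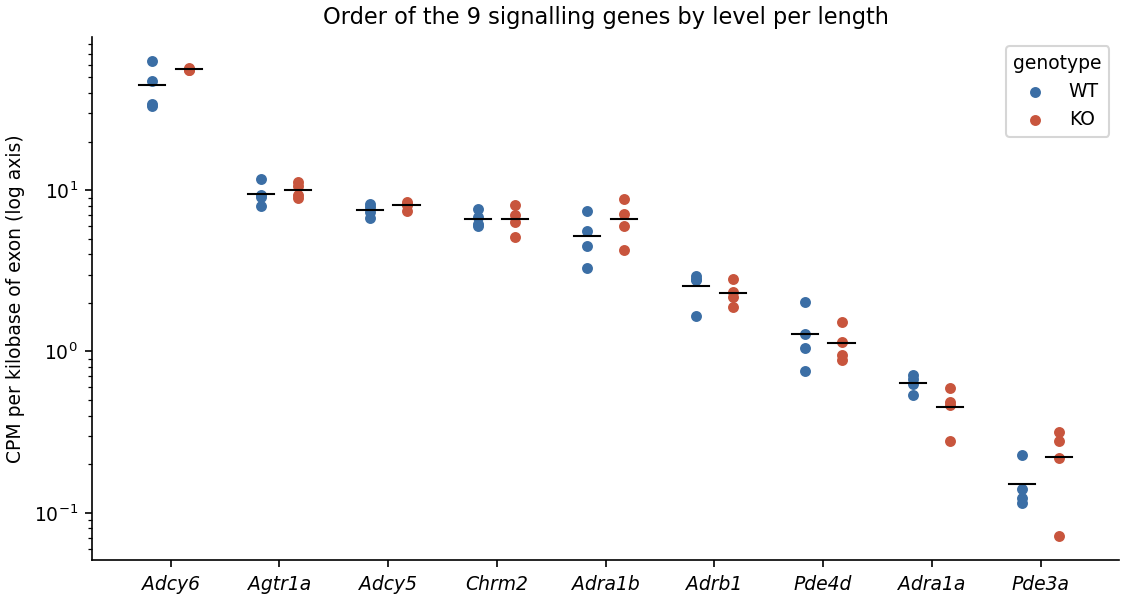
CPM per kilobase of summed exon (log axis) for the 9 genes, ordered by their WT mean, with WT and KO libraries as points (4 each) and group means as bars. Adcy6 sits highest at 44.7 (WT mean) and Pde3a lowest at 0.151, and within each gene the WT and KO points overlap.

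Within their families, these genes held very different shares of the per-kilobase total. Chrm2 made up 99.7 ± 0.412% of muscarinic receptor RNA among WT and 99.6 ± 0.282% among KO hearts, and Chrm4 and Chrm5 had no counts. Of the 3 Agtr genes, only Agtr1a was detected. Agtr1b and Agtr2 had 0 of 101298202 counts over all libraries, which allows at most 0.0296 CPM (3 counts, counting error only). Adra1b took 82.9 ± 3.73% of alpha1 receptor RNA in WT and 88.9 ± 5.59% in KO, and Adra1a 11.1 ± 4.27% and 6.61 ± 3.16%. These shares depend on the length used: per kilobase of the longest transcript, Adra1a held 19.8 ± 6.80% and 12.3 ± 5.45%. Adcy6 ranked first of 10 cyclases with 64.7 ± 5.19% and 67.2 ± 1.45%, and Adcy5 came after Adcy4 with 11.5 ± 2.62% and 9.62 ± 0.392%. Of 16 phosphodiesterase genes measured, Pde4d ranked 8 (2.56 ± 0.871% and 2.35 ± 0.609%, or 4.73 ± 1.57% and 4.31 ± 1.08% by its longest transcript), and Pde3a, whose enzyme is the target of milrinone, ranked last (0.308 ± 0.0946% and 0.458 ± 0.227%). Pde2a was also listed, but its identifier was absent from the count table. These ranks and shares leave it out, and its level is not known.

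The comparison of KO with WT asks whether the RNA of these receptors, and of the enzymes that make and degrade cAMP, differs between hearts of the 2 genotypes. The quasi-likelihood test of edgeR called none of the 9 genes at an adjusted p of 0.05, and it called 0.0225% of all genes tested (0.015% as higher and 0.0075% as lower in KO). The count was also 0 at an unadjusted p of 0.05, where 6.4% of all genes passed, with DESeq2, where 0.0825% passed, and with limma-voom. No gene of the 9 had WT and KO ranges of CPM that stay apart, against 4.12% of all genes. Values were positive for 5 genes and negative for 4, with a median log2 fold change of 0.07 against -0.0032 over all genes tested. The largest values were 0.53 (Pde3a) and -0.48 (Adra1a), and the 95% intervals were narrow enough to exclude a 1.5-fold change in either direction for Chrm2, Agtr1a and Adcy5.

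**Figure D2:**
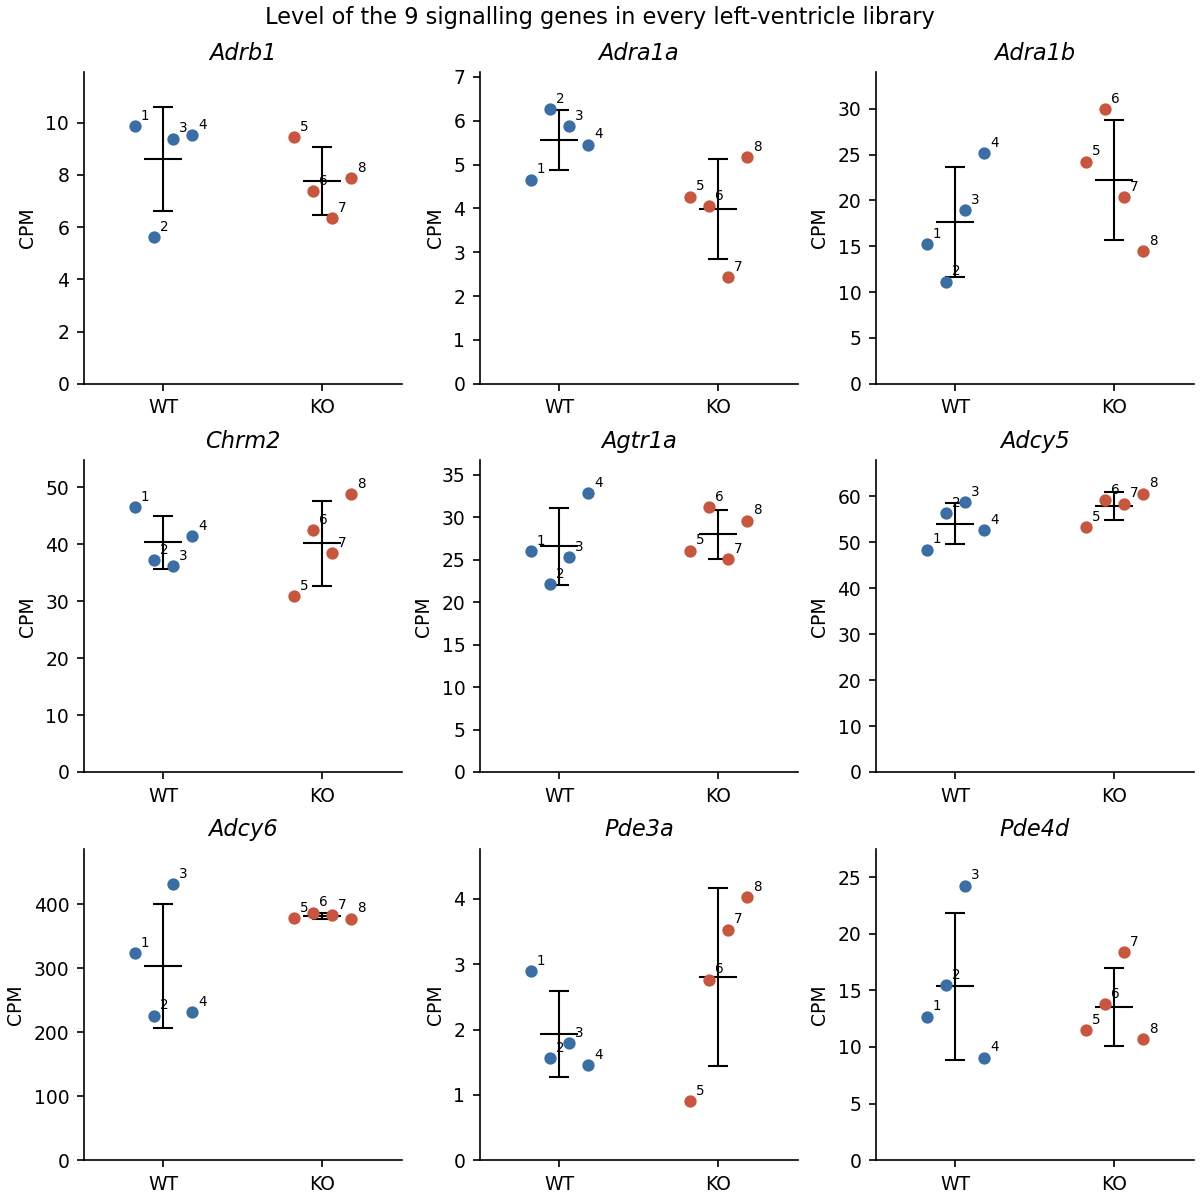
CPM of each of the 9 genes in every library (axes start at 0), with points numbered by replicate, the group mean as a bar and the SD as whiskers (n = 4 each). WT and KO points overlap in every panel, and Adcy6 spans 225.8 to 431 CPM in WT but 377.5 to 387 in KO.

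Among the adrenergic receptors, Adrb1 overlapped between genotypes, with or without WT replicate 2. Adrb1 (ENSMUSG00000035283, chromosome 19 from 56722199 to 56733113, plus strand, protein-coding) stood at 9.88, 5.62, 9.39 and 9.52 CPM in WT replicates 1 to 4. KO replicates 5 to 8 held 9.45, 7.38, 6.35 and 7.88 CPM. WT replicate 2 was the lowest of all. The other WT libraries lay close together, with KO replicate 5 among them and KO replicates 6, 7 and 8 below them. The log2 fold change was -0.15 ± 0.20 (SE; 95% interval -0.59 to 0.29; adjusted p = 0.913 in edgeR). With 1 library left out, the value ran from -0.30 (WT replicate 2) to -0.066 (KO replicate 7). Adrb1 rested on 61 to 135 counts per library.

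The alpha1 receptors had estimates of opposite sign. Adra1a (ENSMUSG00000045875, chromosome 14 from 66635251 to 66771168, plus strand) stood at 4.66, 6.27, 5.88 and 5.45 CPM in WT replicates 1 to 4. In KO replicates 5 to 8 it stood at 4.27, 4.04, 2.43 and 5.16 CPM. KO replicate 7 was the lowest of all, and only KO replicate 8 reached into the WT range. Its log2 fold change of -0.48 ± 0.24 (SE; 95% interval -0.996 to 0.027) had the smallest p of the 9 genes and did not pass (adjusted p = 0.777 in edgeR). With 1 library left out, the value ran from -0.63 (KO replicate 8) to -0.31 (KO replicate 7), and it was -0.42 without WT replicate 2. It rested on 31 to 72 counts per library.

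Adra1b (ENSMUSG00000050541, chromosome 11 from 43774606 to 43901210, minus strand) was spread more widely within both groups. WT replicates 1 to 4 held 15.3, 11.2, 18.95 and 25.2 CPM, and KO replicates 5 to 8 held 24.2, 29.9, 20.4 and 14.4 CPM. The highest library was KO replicate 6 and the lowest WT replicate 2, while KO replicate 8 lay below 3 of the libraries of WT. The log2 fold change was 0.33 ± 0.25 (SE; 95% interval -0.20 to 0.87; adjusted p = 0.818 in edgeR). It fell to 0.17 without WT replicate 2 and to 0.15 without KO replicate 6, and was 0.55 without WT replicate 4.

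Chrm2, which mediates vagal slowing of the heart, had the same mean level in both genotypes. Chrm2 (ENSMUSG00000045613, chromosome 6 from 36388084 to 36528414, plus strand) stood at 46.5, 37.2, 36.2 and 41.4 CPM in WT replicates 1 to 4. KO replicates 5 to 8 held 30.9, 42.4, 38.4 and 48.8 CPM, so that the lowest and the highest library were both KO. The log2 fold change of -0.0090 ± 0.14 (SE; 95% interval -0.32 to 0.30; adjusted p = 0.991 in edgeR) changed sign with the library left out, from -0.12 to 0.099. Chrm2 shares 142 exonic bases with 9330158H04Rik on the opposite strand, which held 240 to 372 counts per library, and the strand setting of the count is not stated in these sources.

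Agtr1a (ENSMUSG00000049115, chromosome 13 from 30336441 to 30382867, plus strand) overlapped fully between genotypes. It stood at 26.0, 22.1, 25.2 and 32.8 CPM in WT replicates 1 to 4. The levels of KO replicates 5 to 8 were 26.0, 31.2, 25.0 and 29.6 CPM. WT held both the lowest and the highest library, replicates 2 and 4. The log2 fold change was 0.07 ± 0.14 (SE; 95% interval -0.22 to 0.37; adjusted p = 0.943 in edgeR), and -0.0040 without WT replicate 2. In the heart this receptor is known from fibroblasts and pericytes as well as from muscle cells. All 6 fibroblast markers had negative values (median -0.22, 0 passing; 1, Pdgfra, turned to 0.011 without WT replicate 2), with a summed level of 1040 to 1310 CPM in WT and 840 to 1080 CPM in KO, and their part in the level of Agtr1a was not tested. The 8 smooth muscle and pericyte markers summed to 751 to 942 CPM in WT and 610 to 1140 CPM in KO.

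The 2 cyclases that beta receptors drive in heart muscle differed from each other in spread. Adcy5 (ENSMUSG00000022840, chromosome 16 from 35154877 to 35305738, plus strand) stood at 48.3, 56.3, 58.7 and 52.7 CPM in WT replicates 1 to 4, whereas KO replicates 5 to 8 held 53.3, 59.1, 58.4 and 60.6 CPM. Its levels were the most even of the 9 genes in WT, with a coefficient of variation of 8.34% there and 5.43% in KO. For Adcy5 the log2 fold change was 0.10 ± 0.10 (SE; 95% interval -0.12 to 0.32; adjusted p = 0.880 in edgeR) and -0.07 after removal of a trend in GC content and length.

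Adcy6 (ENSMUSG00000022994, chromosome 15 from 98589973 to 98610076, minus strand) was uneven in WT and even in KO. WT replicates 1 to 4 held 324, 225.8, 431 and 231.5 CPM, whereas KO replicates 5 to 8 held 378, 387, 383 and 377.5 CPM. WT replicates 1, 2 and 4 thus lay below all 4 KO libraries, and WT replicate 3 lay above them all. The coefficient of variation was 31.9% in WT and 1.13% in KO, a difference in spread that was not tested. The log2 fold change of 0.33 ± 0.18 (SE; 95% interval -0.063 to 0.72) did not pass (adjusted p = 0.784 in edgeR). It was 0.21 without WT replicate 2 and 0.55 without WT replicate 3. Adcy6 had 2450 to 5451 counts per library, and 605 of its exonic bases overlap the opposite-strand gene Gm29331, which is absent from the count table.

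The 2 phosphodiesterases had the widest 95% intervals of the 9 genes. Pde3a (ENSMUSG00000041741, chromosome 6 from 141249269 to 141507448, plus strand) stood at 2.89, 1.57, 1.80 and 1.46 CPM in WT replicates 1 to 4, whereas KO replicates 5 to 8 held 0.910, 2.77, 3.53 and 4.03 CPM. KO replicate 5 was the lowest library of all and KO replicates 7 and 8 the highest. The log2 fold change was 0.53 ± 0.41 (SE; 95% interval -0.36 to 1.41; adjusted p = 0.824 in edgeR) and rested on 13 to 46 counts per library. Without KO replicate 5 it was 0.83, and without KO replicate 8 it was 0.31. The gene shares 741 exonic bases with the opposite-strand gene Gm28523, which is also absent from the count table.

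Pde4d (ENSMUSG00000021699, chromosome 13 from 108449948 to 109953461, plus strand), which encodes many isoforms that bind to local complexes of receptors and channels, stood at 12.7, 15.5, 24.3 and 9.06 CPM in WT replicates 1 to 4. KO replicates 5 to 8 held 11.5, 13.8, 18.4 and 10.7 CPM. The KO libraries all lay between WT replicates 4 and 3, the lowest and the highest. Its log2 fold change was -0.18 ± 0.26 (SE; 95% interval -0.75 to 0.39; adjusted p = 0.923 in edgeR), and 0.13 without WT replicate 3. The counts cover the whole gene and do not separate its isoforms.

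**Figure D3:**
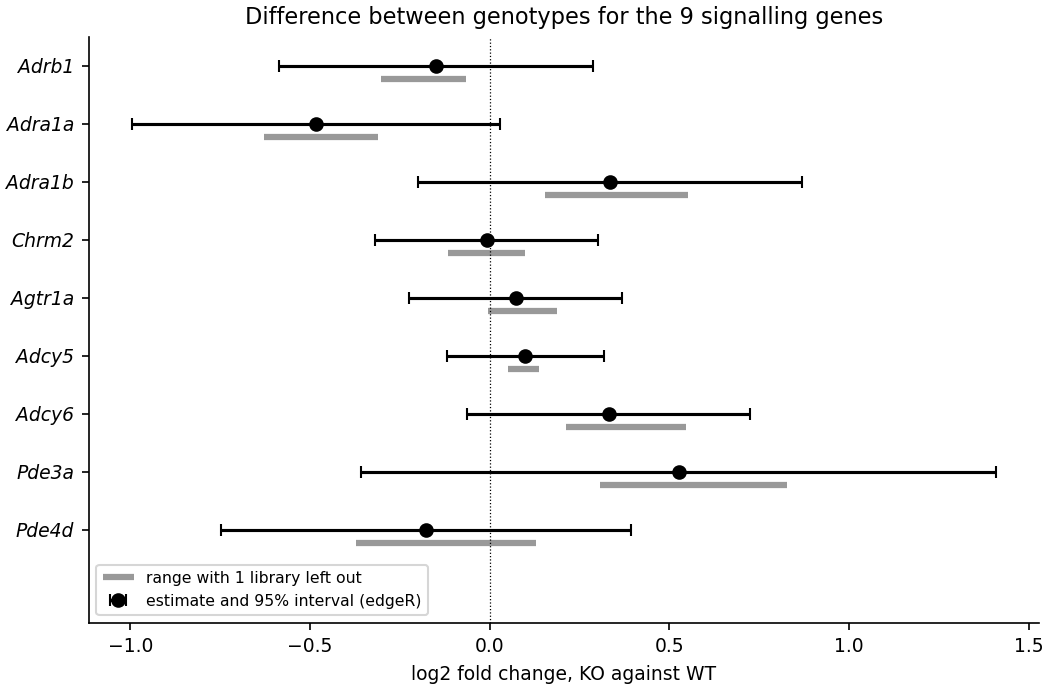
Log2 fold change of KO against WT for the 9 genes with its 95% interval from edgeR (black), and the range of values with 1 library left out (grey). Every interval includes 0, and that of Pde3a is the widest, from -0.36 to 1.41.

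With a trend in transcript GC content and length removed together from each library, the values of 6 genes moved down and those of 3 moved up. Those that moved down were Adcy5 (by -0.17, from a transcript of 59.5% GC), Adrb1 (-0.11, 58.8%), Adcy6 (-0.11, 55.4%), Adra1b (-0.057, 54.5%), Adra1a (-0.059, 50.1%) and Pde4d (-0.072, 49.8%). The 3 genes with the lowest GC content moved up: Agtr1a (0.07, 46.5%), Pde3a (0.021, 43.0%) and Chrm2 (0.066, 41.6%). Each shift was smaller than 2 SE of its gene's estimate, and no gene passed in that fit.

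Ratios between paired genes within a library do not depend on how libraries are scaled. The 4 pairs were tested by an exact two-sided permutation test over 70 assignments of the libraries, whose smallest p is 0.0286, with Benjamini-Hochberg adjustment over the 4 pairs. With that adjustment a lone pair cannot go below 0.114, even if its groups do not overlap. No pair could therefore have passed unless most of the 4 pairs did. Adra1b counts per Adra1a count were 3.28, 1.78, 3.22 and 4.62 in WT replicates 1 to 4, and KO replicates 5 to 8 gave 5.67, 7.40, 8.39 and 2.80. In 3 of 4 KO libraries the ratio was above every WT library, and KO replicate 8 was below 3 of the WT libraries. The mean log2 ratio was 1.61 ± 0.572 among WT and 2.49 ± 0.708 among KO hearts, a difference of 0.88 (exact p = 0.114, adjusted p = 0.457). That difference was 0.62 without WT replicate 2 and 1.21 without KO replicate 8.

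The other 3 ratios differed less relative to their spread. Adcy6 counts per Adcy5 count ran 6.70, 4.01, 7.35 and 4.40 for WT, then 7.09, 6.54, 6.56 and 6.23 for KO, so KO lay inside the WT range (log2 difference 0.28, exact p = 0.400, adjusted p = 0.610). Adrb1 counts per Chrm2 count, the stimulatory against the inhibitory receptor, ran 0.212, 0.151, 0.260 and 0.230 for WT, then 0.306, 0.174, 0.166 and 0.161 for KO. KO replicate 5 stood above all and the 3 other KO libraries below WT replicates 1, 3 and 4 (log2 difference -0.11, exact p = 0.714, adjusted p = 0.714). Pde4d counts per Pde3a count ran from 4.39 to 13.5 in WT and from 2.65 to 12.6 in KO (log2 difference -0.52, exact p = 0.457, adjusted p = 0.610).

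**Figure D4:**
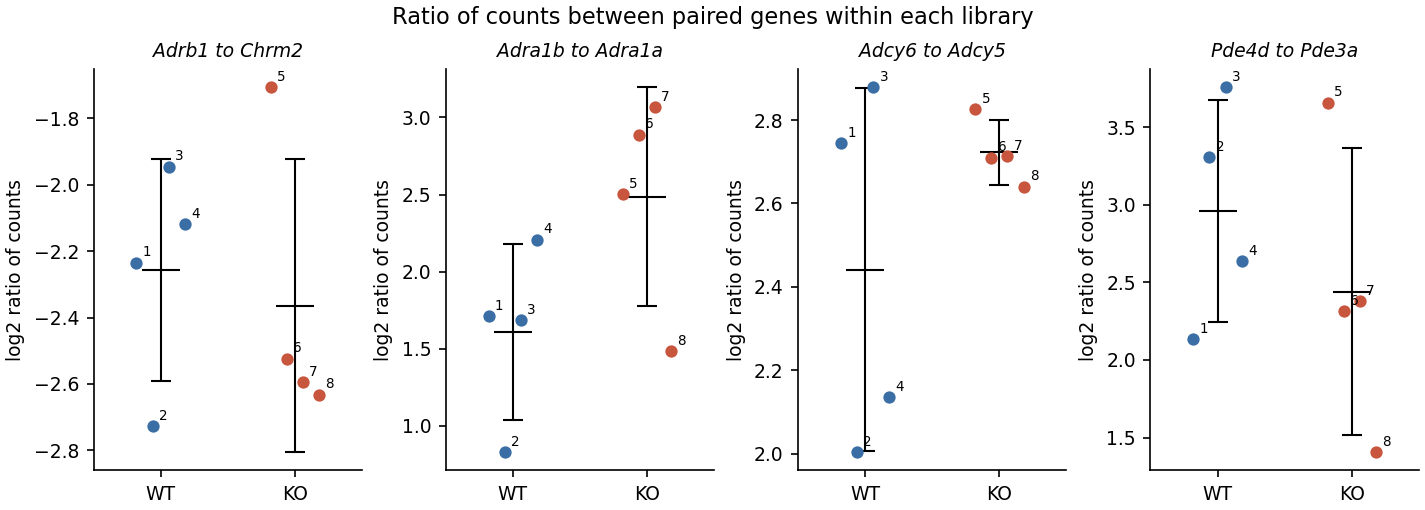
Log2 ratio of counts between 4 pairs of genes in each library, numbered by replicate, with the group mean as a bar and the SD as whiskers (n = 4 each). For Adra1b to Adra1a, KO replicates 5, 6 and 7 lie above all WT libraries and KO replicate 8 does not. The axes do not start at 0.

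Of the other genes of these pathways, listed by role, 111 were in the table and 95 were tested. None passed in edgeR, DESeq2 or limma-voom (0 higher, 0 lower). At an unadjusted p of 0.05 there were 12 (7 higher and 5 lower in KO, 12.6%, against 6.4% of all genes), and 6 had groups that do not overlap (6.32%, against 4.12%). The median log2 fold change was 0.012, with 50 positive and 45 negative.

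Of the genes for making the ligands, Th and Chat were not detected in this tissue and Ren1 nearly so. Dbh and Agt were detected in every library. Per kilobase of summed exon, Dbh stood at 2.49 in WT and 2.35 in KO, near the level of Adrb1. Ace stood higher, at 73.5 ± 9.21 CPM among WT and 80.5 ± 14.9 among KO hearts. Th and Chat, which encode the enzymes that start noradrenaline synthesis and make acetylcholine, had 0 counts in every library. Dbh, which encodes the last enzyme of noradrenaline synthesis, had 45 to 126 counts per library, or 6.69 ± 2.50 CPM among WT and 6.32 ± 2.25 among KO hearts. Agt, the angiotensin precursor, stood at 3.77 ± 0.677 CPM among WT and 5.17 ± 1.26 among KO hearts, and Ren1 had 1 count in all. Of the 6 genes of angiotensin processing tested, 3 were positive and 3 negative. Mme, the protease neprilysin, had a log2 fold change of -0.79 ± 0.30 and Lnpep -0.52 ± 0.26 (-0.19 without WT replicate 2), and Ace, the converting enzyme and the most abundant of them, 0.13 ± 0.14. Their adjusted p lay between 0.734 and 0.886 in edgeR. Of 13 other receptors 3 were tested, among them Mas1, the receptor for angiotensin 1-7 (0.43 ± 0.27), and the alpha2 receptor Adra2b (-0.17 ± 0.38).

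Between receptor and cyclase, the 14 G protein subunit genes had a median of -0.03, with 6 positive and 8 negative. Gng11, a gamma subunit, was lower in every KO library than in any WT library, averaging 61.6 ± 10.2 CPM among WT and 44.95 ± 3.22 among KO hearts (log2 fold change -0.45 ± 0.13, adjusted p = 0.711 by edgeR). Gng5 stood at 0.29 ± 0.13 on the log2 scale, and Gnas, the stimulatory alpha subunit and the most abundant of the list per kilobase, at 0.0099 ± 0.11. The 12 receptor kinases, arrestins and RGS proteins had a median of 0.10, with 8 positive and 4 negative. Grk3, a kinase that phosphorylates activated receptors, had KO libraries all above WT (22.6 ± 2.94 CPM among WT, 30.02 ± 2.36 among KO hearts, log2 fold change 0.41 ± 0.12, adjusted p = 0.711). Arrb1, which uncouples phosphorylated receptors, stood at 0.38 ± 0.16 (0.24 without WT replicate 2), and Rgs5, known from pericytes, at -0.05 ± 0.14.

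Of the 5 other cyclases tested, 4 had positive values, with a median of 0.27. Adcy7 stood at 0.42 ± 0.16 (adjusted p = 0.734 in edgeR) and Adcy4, the second most abundant cyclase per kilobase, at 0.27 ± 0.12 (adjusted p = 0.777). The 14 other phosphodiesterases had a median of -0.05, with 6 positive and 8 negative. Pde10a was higher in every KO library than in any WT library at a low level (3.65 ± 0.700 CPM among WT, 5.77 ± 1.38 among KO hearts, log2 fold change 0.66 ± 0.23, adjusted p = 0.725). Pde8a stood at -0.23 ± 0.11 and Pde4a, the most abundant of the list per kilobase in the mean of both groups, at 0.08 ± 0.24 (-0.14 without WT replicate 2).

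Downstream, the 22 genes of protein kinase A, its anchors and other cAMP effectors had a median of 0.013, with 12 positive and 10 negative. Pkia, an inhibitor of protein kinase A, stood at -0.37 ± 0.14 and the anchor Akap5 at -0.68 ± 0.28 (adjusted p = 0.734 and 0.768 in edgeR), and Popdc2, a cAMP-binding membrane protein, at 0.08 ± 0.13. The 8 genes of phospholipase C beta and protein kinase C, which the alpha1 and angiotensin receptors use, had a median of -0.10, with 2 positive and 6 negative. Plcb3 had all KO libraries above WT (0.29 ± 0.12, adjusted p = 0.768), Prkcb stood at -0.37 ± 0.27 and Plcb4 at -0.10 ± 0.14. Among 11 end effectors (7 positive, 4 negative, median 0.15), Crem, a transcription factor of the cAMP response, was lower in all KO libraries (-0.27 ± 0.12, adjusted p = 0.772). Rrad, which restrains the L-type calcium channel, stood at 0.57 ± 0.29 (0.31 without WT replicate 2). Pln, the calcium pump inhibitor that protein kinase A phosphorylates, averaged 4127 ± 279.9 CPM among WT and 4121 ± 399 among KO hearts.

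**Figure D5:**
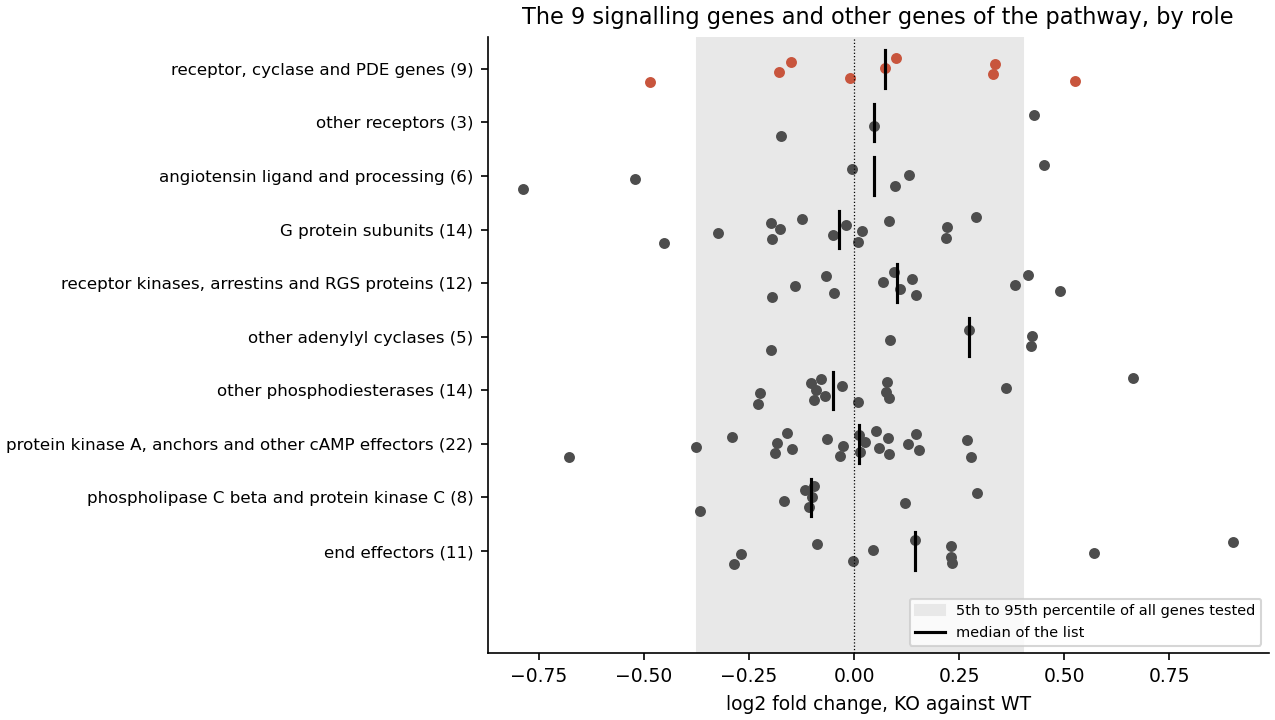
Log2 fold change of KO against WT for each tested gene (points), by role, with list medians as black bars and the number of genes in brackets. The grey band spans the 5th to 95th percentile of all 13336 genes tested (-0.374 to 0.402), and red points are the 9 genes. Outside the band lie 2 of the 9 genes and 14 of the 95 others, the farthest being Hcn4 (0.90, from at most 28 counts per library) and Mme (-0.79).

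The genes most like Adra1a, Adcy6 and Adra1b, the 3 with the smallest p, were sought by Pearson's r of log2 CPM over the 8 libraries, among 8422 named genes of at least 10 CPM. For Adra1a these were Tmem70 (r = 0.965, Spearman's rho = 0.929), Hnrnpa2b1 (r = 0.954, rho = 1) and Sfr1 (r = 0.944, rho = 0.905). For Adcy6 they were Ddi2 (r = 0.971, rho = 0.976), Aasdh (r = 0.971, rho = 0.786) and Phrf1 (r = 0.950, rho = 0.714). For Adra1b they included Mvb12a (r = 0.963, rho = 0.905) and Tmem219 (r = 0.953, rho = 0.976). Without the 2 libraries farthest from the median of the first gene, r ran from 0.525 (Phrf1) to 0.936 (Mvb12a) over the genes named. These are the highest of many values over few libraries that share depth and composition, so they carry no p and are a description.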

How the data were processed

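Left-ventricle RNA of 4 WT and 4 KO hearts was sequenced from stranded poly(A) libraries, per the labels' protocols. The submitters' processing notes name STAR 2.7.1a and GRCm38 (mm10). For the counter, its strand setting and its annotation, nothing is given in the sources used here. What the authors deposited are raw whole-number counts per gene, 1 column per heart, with total counts of 11101901 to 14699949. Symbols, positions and lengths came from GENCODE M21 (GRCm38), which matched 36429 of 38293 identifiers. No 2 libraries agreed within sampling noise (chi-square per gene from 10.8 to 55.5).

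The filter was filterByExpr (minimum count 10) and the scaling TMM, and edgeR 4.0.16 in R 4.3.3 gave the test (glmQLFit and glmQLFTest, two-sided, genotype as the only term), with Benjamini-Hochberg adjustment over 13336 genes. The test was checked on simulated data. SE is the absolute log2 fold change divided by the square root of F, and 95% intervals from SE and the t distribution. CPM uses TMM-scaled library sizes. Alternatives were DESeq2 1.42.0, limma-voom (limma 3.58.1), DESeq2 size factors, library totals, no filter, a minimum of 1 CPM in 4 of the libraries, leaving out mitochondrially encoded genes, removal of a GC and length trend (splines, 4 degrees of freedom), an adjusted p of 0.10 and each library left out. Length of the longest transcript, for levels and family shares, was added after seeing the data.

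The genes and lists were chosen with earlier results of these data known. The rule names all 9 genes and, in each list, the 2 genes with the smallest p and the most abundant per kilobase; other genes are named for a zero count, as markers or as label checks. Some genes that these rules name are not reported here.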

Additional observations from a re-analysis of the deposited data

Results flagged for a closer look

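Groups of 4 libraries were tested with Dixon's critical value, which chance exceeds in about 1 in 20 single groups. The 76 groups tested (9 signalling genes, 25 other named genes and 4 ratios, in each genotype) share libraries and genes. Their number of flags is therefore not comparable with that rate. In 7 of the 76, 1 library had a gap to the rest above the critical value. WT replicate 2 was low in 3 of them: Adrb1 stood at 5.62 CPM where the other WT libraries held 9.39 to 9.88 CPM, Pde4a at 43.3 CPM against 96.9 to 103 CPM, and Adra2b at 0.461 CPM against 1.28 to 1.39 CPM. KO replicate 5 had a log2 ratio of Adrb1 to Chrm2 of -1.71, against -2.63 to -2.52 in the other KO libraries. KO replicate 8 was low in Crem (11.2 CPM against 13.2 to 13.6). KO replicate 7 held 37.7 CPM of Adcy7 against 27.0 to 28.4, and KO replicate 6 held 28.3 CPM of Pde8a against 22.4 to 23.4.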

How the results depend on the processing

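The count of genes that passed, over the 9 genes and over the 95 tested genes of the pathway lists, was 0 in every alternative run. No paired analysis was possible because WT and KO libraries carry no shared replicate numbers. Some estimates changed sign with the processing or with the library left out, among them that of Pde4d (-0.18 with all libraries). The cause was not tested. With the GC and length trend removed, the log2 fold change was 0.057 for Chrm2, -0.069 for Adcy5, -0.16 for Gnas, 0.035 for Rgs5, -0.056 for Pde4a and 0.14 for Pln. With library totals it was -0.034 for Gnas, and without a filter 8.5e-04 for Pln. With 1 library left out, values ran from -0.12 to 0.099 for Chrm2, -0.0040 to 0.19 for Agtr1a, -0.37 to 0.13 for Pde4d, -0.035 to 0.057 for Gnas, -0.14 to 0.057 for Rgs5, -0.14 to 0.20 for Pde4a, -0.16 to 0.019 for Plcb4 and -0.068 to 0.043 for Pln. All 36 alternative values of the 4 ratios kept their sign and stayed short of the threshold. No pair can pass it after adjustment unless most of the 4 pairs do. Per kilobase of the longest transcript, levels moved beyond 1 SD for Adra1a (1.30 in WT, 0.929 in KO), Agtr1a (12.1 and 12.7), Pde4d (3.65 and 3.23) and Adcy6 in KO (63.2). Of the 9 genes, depth limits Pde3a most, at 13 to 46 counts per library; of the other named genes Adra2b had 5 to 18.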

Other observations

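Markers of conduction tissue were also measured. Tbx3, a transcription factor of the conduction system, averaged 19.5 ± 2.20 CPM among WT hearts against 25.3 ± 2.64 among KO hearts (SD, n = 4), with every KO library above every WT library (log2 fold change 0.37 ± 0.13, adjusted p = 0.717 by edgeR). The other conduction markers were low and did not share a direction: Hcn4 averaged 0.580 CPM among WT and 1.104 among KO hearts (log2 fold change 0.90 ± 0.62, ranges overlapping), Shox2 0.801 and 0.483 CPM (-0.67 ± 0.61, ranges overlapping), and Isl1 had 0 counts in every library. The summed level of the list was 18.1 to 23.5 CPM in WT and 24.9 to 30.4 CPM in KO, most of it Tbx3. Whether this moved with the level of Chrm2 was not tested.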
